A study of Mus musculus with 10 samples.

Results

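The membrane trafficking genes described here are the protein-coding mouse genes whose symbols begin with Rab, Vps or Sec and a digit, with Trappc, or with Cop and one of the letters a, b, e, g and z. The rule matched 156 genes in the RefSeq table of GRCm38.p6. Of these, 125 lay on the analysed chromosomes, among 19232 protein-coding genes in all, because chromosomes 8 and 11 were not analysed here. They comprised 58 Rab, 27 Vps, 23 Sec, 11 Trappc and 6 Cop genes. The symbol was the whole rule, and some members do other work. Vps72, for example, encodes a chaperone of a histone variant and Sec1 a fucosyltransferase.

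The data were peak lists from chromatin immunoprecipitation and sequencing (ChIP-seq) with an HA antibody in KH2 mouse embryonic stem cells, a line that takes a single doxycycline-inducible transgene. Each group was a line of its own, so effects of the line and of the group cannot be told apart. SETα addback was KH2 SET-KO pBS31-HA-SETa and SETβ addback KH2 SET-KO pBS31-HA-SETb, so that both lacked endogenous SET. SETα overexpression was KH2 pBS31-HA-SETa and SETβ overexpression KH2 pBS31-HA-SETb, which kept endogenous SET. All 4 groups received 1 µg/ml doxycycline for 24 h. All were crosslinked with 2 mM DSG, which joins proteins to each other, before formaldehyde. The cells had grown on feeder cells, which were depleted before harvest. Each group had 2 libraries, and nothing in the labels says that they came from separate cultures. A pair of SET KO samples that received no doxycycline was not analysed here, so no value has such a background beside it. Peak lists do not measure expression, so the cell type was not checked against markers.

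SET is a histone-binding protein that acts as a histone chaperone and shields histone tails from acetylation. SETα and SETβ differ at their N-terminus. The products of most of the 125 genes act in moving proteins and lipids between compartments of the cell. COPII coats carry cargo out of the endoplasmic reticulum and COPI coats return it from the Golgi. RAB GTPases mark compartments and recruit tethers, TRAPP complexes activate some of them, and many VPS proteins sort cargo at endosomes and lysosomes. Most are housekeeping functions that every cell uses.

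A gene was counted as having a peak when a peak reached within 1 kb of its start or its other end. Such peaks lay mainly at gene starts, so start regions are shown first. RefSeq promoters of GRCm38.p6, which run from 250 bases before a start to 50 bases after it, were found for 101 of the 125 members. The first 4 below belong to members with a peak in both addback IDR lists, which hold peaks that both replicates of a group ranked alike (irreproducible discovery rate). The last 2 belong to members with no peak in any of the 8 libraries, the first by alphabet among the Rab and the Vps genes with a promoter. Capitals mark letters searched for on either strand: CCGGAAG (ETS), GGGCGG (GC box), CCAAT (the box bound by NFY), CCACG (part of the endoplasmic reticulum stress element), CACGTG (E box), TGACGTCA (CRE), TATAAA (a core promoter box) and AAGATGGC (YY1). The palindromes of NRF1 and of lysosomal genes were searched for too and are given by name. The lysosomal palindrome holds an E box, and an E box preceded by C also holds CCACG.
Rab33b, chr3:51483716-51484015, plus strand: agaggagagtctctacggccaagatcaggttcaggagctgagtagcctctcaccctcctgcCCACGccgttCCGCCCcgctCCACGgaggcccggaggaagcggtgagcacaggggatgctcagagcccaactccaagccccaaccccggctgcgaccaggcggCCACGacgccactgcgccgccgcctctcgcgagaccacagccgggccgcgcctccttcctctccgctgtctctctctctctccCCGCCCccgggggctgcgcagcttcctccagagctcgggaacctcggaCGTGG
Sec22b, chr3:97900977-97901276, plus strand: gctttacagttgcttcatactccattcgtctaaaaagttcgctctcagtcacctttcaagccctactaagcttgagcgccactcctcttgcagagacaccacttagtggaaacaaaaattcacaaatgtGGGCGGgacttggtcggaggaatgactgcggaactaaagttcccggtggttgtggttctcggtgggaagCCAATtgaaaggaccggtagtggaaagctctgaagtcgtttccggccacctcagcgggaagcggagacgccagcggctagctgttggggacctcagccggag
Rab23, chr1:33719646-33719945, plus strand: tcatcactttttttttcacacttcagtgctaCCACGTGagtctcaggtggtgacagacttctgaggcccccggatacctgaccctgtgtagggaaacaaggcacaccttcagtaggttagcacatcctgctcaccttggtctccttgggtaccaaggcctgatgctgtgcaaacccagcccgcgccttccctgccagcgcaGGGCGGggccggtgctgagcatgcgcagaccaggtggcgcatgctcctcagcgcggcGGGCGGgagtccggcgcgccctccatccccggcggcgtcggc
Sec13, chr6:113740632-113740931, minus strand: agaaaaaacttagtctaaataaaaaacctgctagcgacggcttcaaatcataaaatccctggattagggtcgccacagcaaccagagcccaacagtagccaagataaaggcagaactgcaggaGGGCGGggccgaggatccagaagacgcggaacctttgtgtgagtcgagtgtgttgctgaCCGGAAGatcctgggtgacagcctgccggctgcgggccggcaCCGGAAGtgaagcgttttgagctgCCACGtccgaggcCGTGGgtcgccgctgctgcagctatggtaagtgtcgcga
Rab11fip2, chr19:59943605-59943904, minus strand: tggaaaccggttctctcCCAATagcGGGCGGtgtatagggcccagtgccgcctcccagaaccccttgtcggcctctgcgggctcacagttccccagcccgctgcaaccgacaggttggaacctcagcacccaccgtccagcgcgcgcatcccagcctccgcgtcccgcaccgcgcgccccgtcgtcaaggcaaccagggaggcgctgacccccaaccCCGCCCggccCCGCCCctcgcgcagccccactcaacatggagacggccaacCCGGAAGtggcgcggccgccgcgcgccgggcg
Vps13a, chr19:16780884-16781183, minus strand: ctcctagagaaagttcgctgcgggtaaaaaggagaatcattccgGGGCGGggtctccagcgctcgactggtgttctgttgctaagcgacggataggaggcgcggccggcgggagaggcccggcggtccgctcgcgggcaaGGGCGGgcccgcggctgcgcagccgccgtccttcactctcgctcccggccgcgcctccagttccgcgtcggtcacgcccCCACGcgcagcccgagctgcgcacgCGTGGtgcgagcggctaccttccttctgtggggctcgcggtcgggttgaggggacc
All 6 are rich in CG dinucleotides. Rab33b has 28, Sec22b 16, Rab23 20 and Sec13 21. Rab11fip2 has 36 and Vps13a 42, the most of the 6, although neither had a peak. They are not typical, since the median over members with no addback peak was 13 and the highest count 42. The promoter table starts Vps13a 138 bases inside the end of the gene table. Sec13 has the ETS letters 68 and 26 bases before its start. A match to such letters is a description of the sequence and not a binding site.

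The number of members with a peak was compared between groups first. In SETα addback, 65 and 62 of the 125 members had a peak, 50.8% ± 1.70 (SD, n = 2). In these 2 libraries 34.3% and 31.8% of all protein-coding genes had one. In SETβ addback the numbers were 23 and 30, 21.2% ± 3.96 (SD, n = 2), beside 8.40% and 18.4% of all genes. The 2 SETα addback libraries thus stood above both SETβ addback libraries, and every addback library had a larger share of members than of all genes. In SETα overexpression, 0 of 125 members had a peak in either library, beside 0.983% and 1.90% of all genes. Much of that background came from chromosome 6, which holds 9 members. Without this chromosome the mean share of all genes fell from 1.44% to 0.486%. In SETβ overexpression 1 and 5 members had one, 2.40% ± 2.26 (SD, n = 2), beside 0.338% and 1.85%. No test over the list is given, because the members were chosen with earlier results of these data known.

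**Figure D1:**
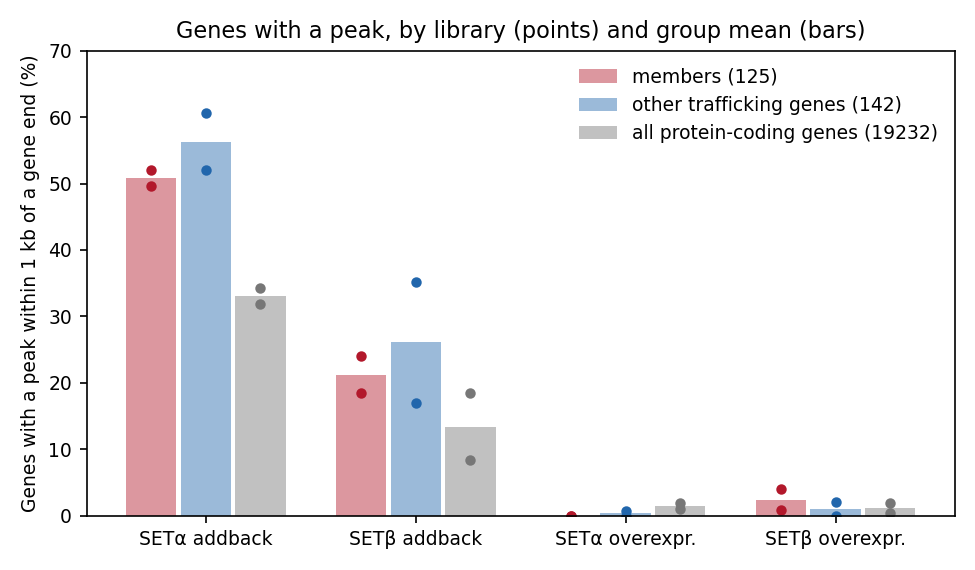
Share of genes with a peak within 1 kb of a gene end (y axis, percent) in each of the 4 groups (x axis), for the 125 members, 142 other trafficking genes and all 19232 protein-coding genes. Points are the 2 libraries of a group and bars their mean. Members stand above all genes in both addback groups and reach 4.0% at most in overexpression.

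The lists differed in length, which bears on these counts. SETα addback libraries held 22176 and 15701 peaks, SETβ addback libraries 2518 and 9768, SETα overexpression 4807 and 7675, and SETβ overexpression 1343 and 2869. With the strongest 1343 peaks of each library, ranked by −log10 p, 13 members had a peak in each SETα addback library and 15 and 12 in the SETβ addback libraries. The shares of all genes were then 4.65%, 5.76%, 5.38% and 4.96%. The counts of both isoforms overlapped at this equal length. By contrast, 0 members in SETα overexpression and 1 and 3 in SETβ overexpression had a peak, beside 0.536%, 0.645%, 0.338% and 0.681% of all genes.

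Among the members, 15 had a peak in all 4 addback libraries, 12.0% beside 5.14% of all genes. A further 13 had one in 3 libraries, 10.4% beside 7.23%, 23 in 2 libraries, 18.4% beside 15.5%, and 35 in 1 library, 28% beside 19.6%. The remaining 39 had none, 31.2% beside 52.5% of all genes. The 15 were Copa, Rab13, Rab23, Rab33b, Rab5a, Sec13, Sec16a, Sec22b, Sec23ip, Sec24c, Trappc10, Vps13b, Vps26c, Vps51 and Vps52. A list of 142 other trafficking genes, such as SNAREs, clathrin adaptors and subunits of the signal recognition particle, was also above all genes in each addback library. In SETα addback 60.6% and 52.1% of them had a peak, and in SETβ addback 16.9% and 35.2%. In all 4 addback libraries 15 of the 142 had one, 10.6%. The share with no addback peak was 20.4%, lower than the 31.2% of the members.

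By role, genes of both coats were often listed with SETα. Of 11 COPII genes, 9 and 7 had a peak in the SETα addback libraries and 5 in each SETβ addback library, beside 34.3%, 31.8%, 8.40% and 18.4% of all genes. As shares of the 11 these were 81.8%, 63.6%, 45.5% and 45.5%. Only Sec16b had none in any of them. The count includes Sec16a, whose peak lay by its other end, near the start of Inpp5e, in all but SETα addback replicate 2. Of 6 COPI genes, 5 and 4 had a peak with SETα and 1 in each library with SETβ, which was Copa, or 83.3%, 66.7%, 16.7% and 16.7%. Many of these COPI peaks were weak. Their −log10 q was 0.525 to 1.34 in SETα addback replicate 1 and 0.956 to 5.96 in replicate 2. At Copa it was 6.74 and 8.17 with SETβ. Of the 50 RAB GTPase genes, 48.0% and 50.0% had a peak in SETα addback and 14% and 22.0% in SETβ addback. Of these 50, 17 had no addback peak, 34.0% beside 52.5% of all genes. The other 8 Rab genes were grouped by symbol alone as RAB effectors and regulators. Of these, 1 had a peak in each SETα addback library, Rab5if, 12.5%, and 1 and 2 in the SETβ addback libraries, 12.5% and 25%. There were 5 with none in any addback library, 62.5% beside 52.5% of all genes.

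Tethers and sorting complexes are small sets, and their counts stand beside the same shares of all genes. Of 11 TRAPP genes, 5 and 7 had a peak in SETα addback and 1 and 3 in SETβ addback, which is 45.5%, 63.6%, 9.09% and 27.3%. Of 8 genes listed for the HOPS and CORVET tethers of late and early endosomes, 4 and 3 had one with SETα, 50.0% and 37.5%, and 0 with SETβ. This list includes Vps33b, listed in both SETα libraries, whose product is known from a separate complex. The 5 ESCRT genes, which act in the budding of vesicles into endosomes, gave 3 in each SETα library and 0 in each SETβ library. Of the 3 genes of the GARP and EARP tethers, Vps51 and Vps52 had a peak in all 4 addback libraries and Vps50 in none. The 3 retromer genes gave 2 and 3 with SETα and 2 and 0 with SETβ. The SETα lists were the longer ones, and differences between roles were not tested.

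**Figure D2:**
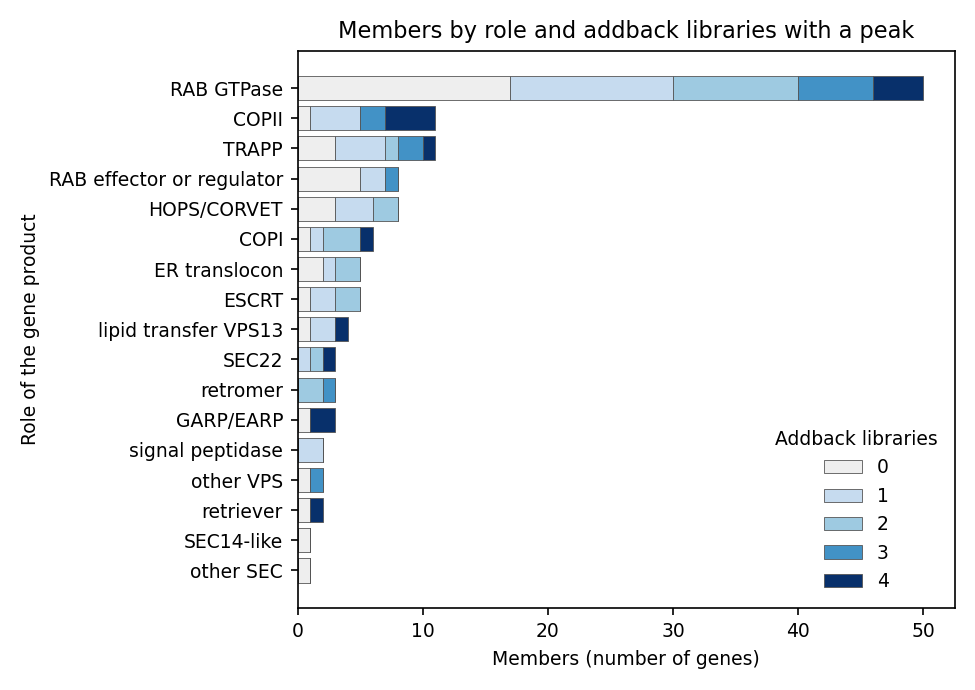
Number of members (x axis) in each role (y axis), divided by how many of the 4 addback libraries listed a peak within 1 kb of a gene end. The darkest segments, for 4 libraries, include 4 of 11 COPII genes, 4 of 50 RAB GTPase genes and 2 of 3 GARP and EARP genes.

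The strongest peak at any member was that of Rab33b, a Golgi RAB that acts in transport within the Golgi and in autophagy. The gene lies on chr3:51483966-51496228, and its peak covered the start. In SETα addback the authors' −log10 p was 108 and 115, with fold enrichments of 24.4 and 30.2. In SETβ addback it was 165 and 106, with folds of 25.6 and 20.4. The peak ranked between 1 and 6 in each of the 4 lists, and no overexpression library listed it. Its 4 summits lay 98 to 119 bases downstream of the start, just past the end of the promoter printed above. Both measures were assigned by the authors' peak caller within one library.

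Of 125 members, 9 had a peak in the SETα addback IDR list, beside 2.77% of all genes, and 8 in the SETβ addback IDR list, beside 2.62%. Rab23, Rab33b, Sec13, Sec22b, Vps13b and Vps51 were in both, 4.8% of members beside 2.17% of all genes. They made up 66.7% of the 9 and 75.0% of the 8, beside 78.4% and 83.1% of the lists' genes over all protein-coding genes. Rab26, Trappc10 and Vps26c were in the SETα list alone, and Copa and Vps52 in the SETβ list alone. In at least 1 of the 2 lists there were 11 members, 8.8% beside 3.21% of all genes. The overexpression IDR lists held 0 members, beside 0.0676% of all genes with SETα and 0.026% with SETβ. With library peaks of a −log10 q of at least 5, the SETα addback libraries had 10 and 12 members, beside 3.88% and 4.52% of all genes. The SETβ addback libraries had 9 and 8, beside 2.69% and 2.62%. At that threshold Rab23, Rab33b, Sec13, Sec22b, Vps13b, Vps51 and Vps52 were in all 4, 5.6% of members beside 2.16% of all genes. The 111 members that passed it in no addback library stand beside 94.2% of all genes. In overexpression 0 members passed it in any library, beside 0.0052% and 0.0624% of all genes with SETα and 0% and 0.0052% with SETβ.

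Sec22b, a SNARE of transport between the endoplasmic reticulum and the Golgi, lies on chr3:97901227-97922318. Its −log10 p was 28.9 and 26.1 in SETα addback and 64.2 and 41.1 in SETβ addback, with folds of 9.71, 10.4, 15.3 and 12.1. Both SETβ values were above both SETα values. The summits lay 71 to 99 bases upstream of the start in all 4 libraries, between the GC box and the CCAAT letters of the promoter printed above.

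Sec13 encodes a subunit shared by the COPII outer coat and the nuclear pore (chr6:113728052-113740681). Its −log10 p was 23.3 and 49.1 with SETα and 18.7 and 16.9 with SETβ, with folds of 8.18, 15.6, 4.61 and 5.06. Here both SETα values were above both SETβ values. The summits lay 50 to 100 bases upstream of the start, near the ETS letters at 68 bases.

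Rab23, a RAB that restrains Hedgehog signalling and acts at the cilium, lies on chr1:33719896-33742564. Its −log10 p was 27.1 and 24.3 with SETα and 33.7 and 30.6 with SETβ, with folds of 8.23, 8.89, 8.73 and 8.96. The summits lay 188 to 217 bases downstream of the start. The start of the noncoding RNA Gm32229 lay 261 bases from one of them.

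Vps13b encodes a large lipid transfer protein of the Golgi (chr15:35371118-35931229). Its −log10 p was 28.9 and 23.8 with SETα and 27.7 and 9.84 with SETβ, so the SETβ replicates differed more than the SETα replicates. Vps26c, a subunit of the retriever complex that recycles membrane proteins, lies on chr16:94497724-94526629. Its −log10 p was 17.3 and 10.9 with SETα and 10.2 and 3.91 with SETβ. Its SETβ peak in replicate 2 had a −log10 q of 0.416, and the gene was missing from the SETβ IDR list.

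**Figure D3:**
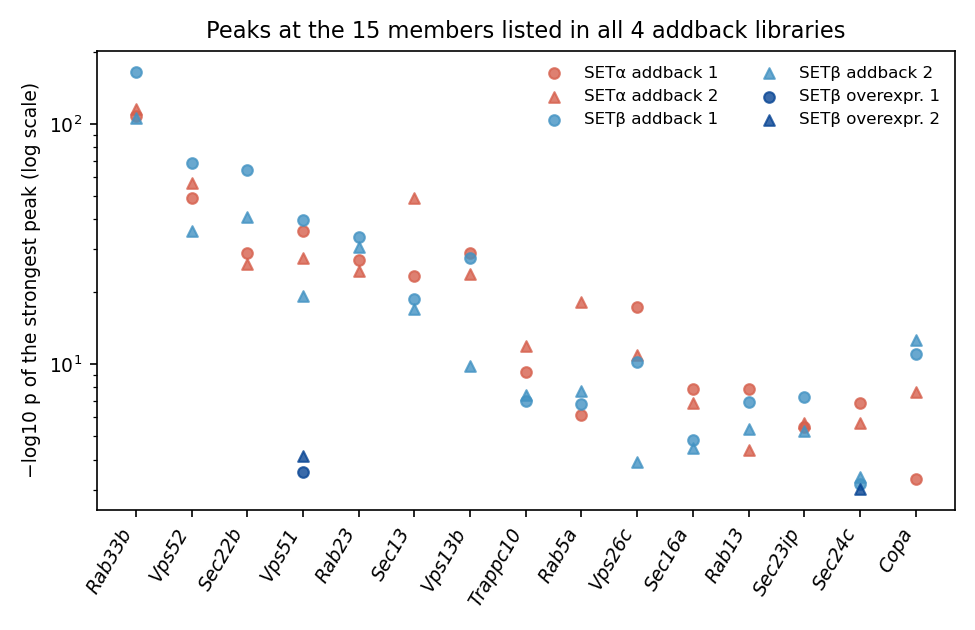
The authors' −log10 p of the strongest peak at a gene end (y axis, log scale) for the 15 members listed in all 4 addback libraries (x axis), one point per library, circles for replicate 1 and triangles for replicate 2. Rab33b lies above 100 in all 4 addback libraries, and the overexpression points, at Vps51 and Sec24c, lie below 5.

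Several strong peaks lay close to both a member and a neighbouring gene. Of the 11 members in at least 1 addback IDR list, 5 had another protein-coding gene end within 1 kb of the summit. For Vps52, a GARP subunit (chr17:33955779-33967038), the −log10 p was 49.3 and 56.5 with SETα and 68.7 and 35.8 with SETβ. Its summit in SETβ addback replicate 1 lay 131 bases inside Vps52 and 245 bases from the start of Rps18, a ribosomal protein gene. The peak ranked 72 and 54 in the SETα addback libraries, yet the SETα IDR list did not hold it. Of the strongest 100 peaks of those libraries, all overlapped a peak of the other replicate, and 6 and 4 were missing from that IDR list.

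Vps51, another GARP subunit (chr19:6067842-6077187), had a −log10 p of 35.8 and 27.7 with SETα and 39.7 and 19.2 with SETβ. The start of Tmem262 lay 583 bases from the summit in SETβ addback replicate 1. Copa, the α subunit of the COPI coat (chr1:172082529-172122332), had 3.32 and 7.65 with SETα and 11 and 12.6 with SETβ. Both SETβ values exceeded both SETα values. In 3 of the 4 libraries the Copa summit was nearer to the start of Ncstn, which encodes a γ-secretase subunit.

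At Trappc10, Rab26 and Trappc4 the neighbour was the nearer gene in the libraries given here. The Trappc10 peaks, with −log10 p of 9.22, 11.9, 7.04 and 7.41, lay by the 3′ end of this TRAPP subunit gene. In SETα addback replicate 2 the summit was 384 bases from that end and 133 bases from the start of Pwp2, a ribosome assembly gene. At Rab26, a RAB of secretory granules, a peak reached within 1 kb only in SETα addback replicate 2 (−log10 p 9.09). Its summit was 1295 bases from the gene and 179 bases from the start of Traf7. Just outside the window, the nearest peak was 1135 bases away in SETα addback replicate 1 and 1022 bases in SETβ addback replicate 2. The Trappc4 peak of SETα addback replicate 1, with a −log10 p of 11.9, was 462 bases from Trappc4 and 296 bases from the start of Rps25. At Sec16a, named after its values were seen, the start of Inpp5e was nearer in 3 of the 4 addback libraries.

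Over all members with a peak, another protein-coding gene end lay within 1 kb of the summit for 17 of 65 and 15 of 62 members in SETα addback. In SETβ addback it was 7 of 23 and 8 of 30. Members with such a neighbour by the gene table alone were more often listed. Of 38 with another gene end within 1 kb of their own, 9 had a peak in all 4 addback libraries, 23.7%. Of 87 without one, 6 did, 6.9%. Over all protein-coding genes the shares were 10.5% of 4562 and 3.48% of 14670. When a peak counted only for the gene whose end was nearest to its summit, SETα addback had a mean of 57.5 members, 46.0% beside 29.6% of all genes, and SETβ addback 24.5, 19.6% beside 11.5%.

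Peaks at members lay mostly at starts. Of the 101 members with a known strand, 52 and 50 had a peak within 1 kb of the start in SETα addback, and 8 and 5 within 1 kb of the other end, 7.92% and 4.95% beside 5.83% and 4.57% of all genes. In SETβ addback the numbers were 18 and 26 at the start and 2 at the other end in each library, 1.98% beside 0.6% and 2.25%. Over 15495 genes with a known strand the shares at the start were 31.9% and 30.1% with SETα and 8.07% and 17.0% with SETβ. The median summit of the members lay 120 to 163 bases downstream of the start in the 4 libraries. For all genes it lay 73.5 to 157 bases downstream.

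**Figure D4:**
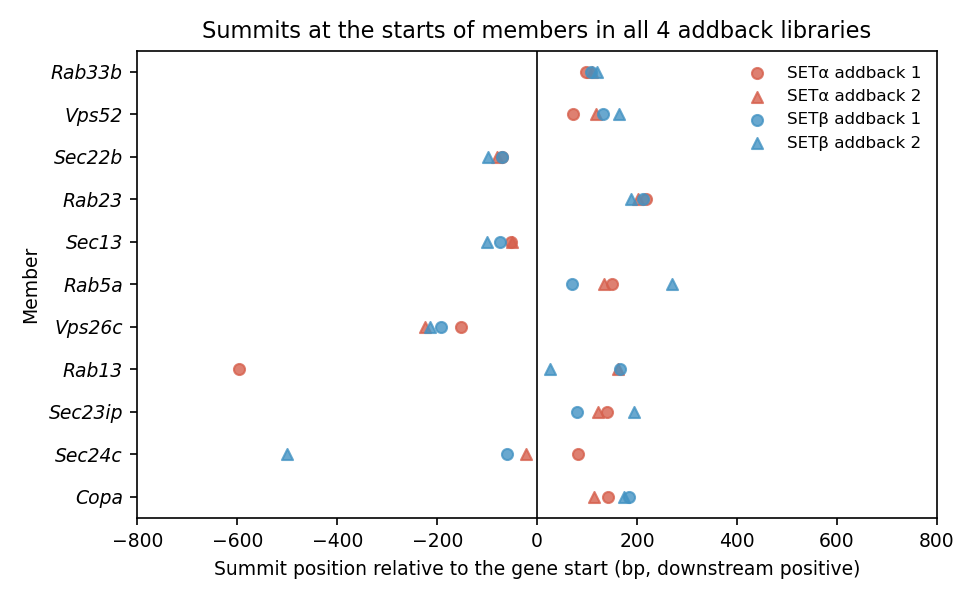
Position of the peak summit relative to the gene start (x axis, bp, downstream positive) for members listed in all 4 addback libraries with a known strand and a summit within 1 kb of the start (y axis). Points are single addback libraries. At Rab33b, Rab23 and Sec22b the 4 summits lie within 29 bp of each other, while Rab13 and Sec24c spread over more than 500 bp.

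Of the 15 members in all 4 addback libraries, 13 had a known strand, and 11 of these had all 4 summits within 1 kb of the start. In 6 of the 11 every summit was downstream of the start, and in 3, Sec13, Sec22b and Vps26c, every summit was upstream. In 7 of the 11 the 4 summits fell within 100 bp of each other, and the span was 21 bp at Rab33b. The widest spans were 763 bp at Rab13 and 582 bp at Sec24c, a cargo adaptor of the COPII coat, whose −log10 p was at most 6.88. The span was 70 bp at Copa and 72 bp at Vps26c.

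CG content moved with the presence of a peak, and its part in the counts was not tested beyond the shares given here. The 101 members with a promoter had a median of 20 CG dinucleotides in 300 bases, against 13 over 15495 protein-coding promoters. Members in all 4 addback libraries had a median of 25, those in 1 to 3 libraries 23 and those in none 13. The same order was found over all genes, with 23, 21 and 4. At least 15 CG dinucleotides were present in 75.2% of the members' promoters and in 46.3% of all.

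Among promoters of at least 15 CG dinucleotides the members lay closer to other genes. In SETα addback 67.1% and 60.5% of 76 such members had a peak, beside 55.6% and 53.5% of 7174 such genes. In SETβ addback the values were 25% and 31.6% beside 14.7% and 30.8%. Over genes with a promoter in the table the members' share was 1.62 and 1.6 times the background with SETα and 2.33 and 1.39 times with SETβ. Within CG-rich promoters it was 1.21, 1.13, 1.70 and 1.03 times. In SETβ addback replicate 2 the members were thus at the background of such promoters. In all 4 addback libraries together the ratio was 2.48 over genes with a promoter and 1.76 within CG-rich promoters, from 12 of 76 members. A further 12 of the 76, 15.8%, had no addback peak, beside 24.1% of such genes.

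**Figure D5:**
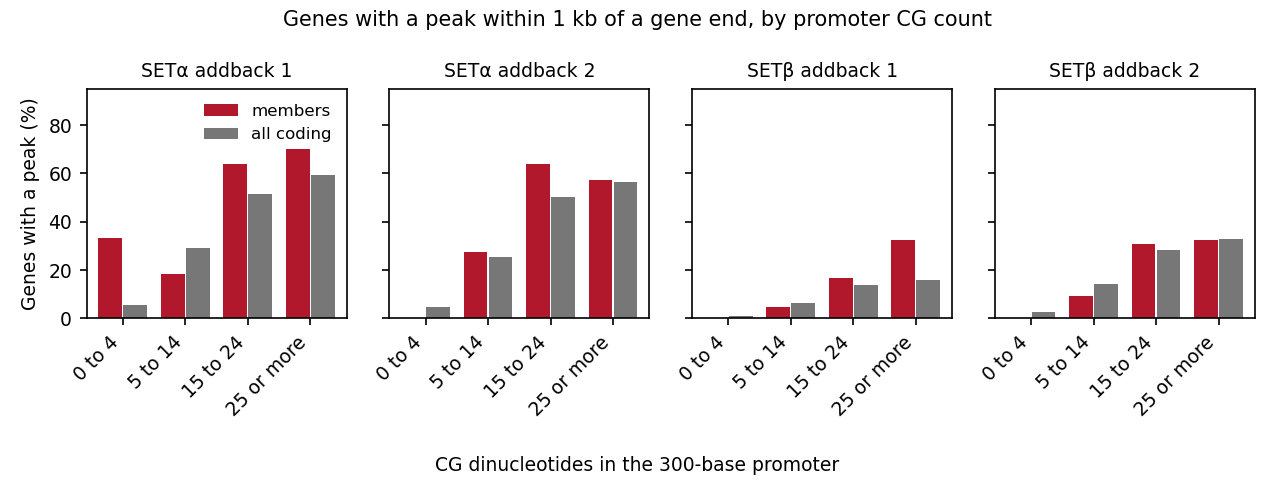
Share of genes with a peak (y axis, percent) by the number of CG dinucleotides in the 300-base promoter (x axis) in each addback library, for members (3, 22, 36 and 40 genes from left to right) and all protein-coding genes. Over all genes the share rises from class to class in each library. The members' share is higher in the 2 CG-rich classes than in the class of 5 to 14, and their leftmost class holds 3 genes.

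The letters searched for in the promoters were counted for members and for all genes. CCGGAAG, the ETS letters, was in 22.8% of members' promoters and 11.7% of all. It was in 6 of the 13 members with a promoter that had a peak in all 4 addback libraries, 46.2%, which were Sec13, Sec23ip, Sec24c, Trappc10, Vps26c and Vps52. The peaks of Trappc10 lay at its other end, away from the promoter counted, as did those of Sec16a in 3 libraries, so the values for the 13 include 2 such promoters. Over all genes with a peak in all 4 it was in 40.8%. Read the other way, 26.1% of 23 members with the letters and 8.97% of 78 without them had a peak in all 4 libraries. Over all genes these shares were 18.1% and 3.47%, and with at least 15 CG dinucleotides 20.6% and 6.12%. The members followed the pattern of all genes here. The strongest promoter, that of Rab33b, lacks these letters on both strands.

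GGGCGG was in 70.3% of members' promoters and 45.7% of all. CACGTG was in 12.9% and 7.74%, CCACG in 46.5% and 36.9%, and CCAAT in 33.7% and 39.1%. AAGATGGC was in 6.93% and 3.05%, TATAAA in 7.92% and 13.4%, TGACGTCA in 2.97% and 2.24%, and the NRF1 palindrome in 0 of 101 and 1.34%. The palindrome of lysosomal genes was in 6 of 101 members' promoters, 5.94%, against 0.419% of all. These were Rab21, Rab24, Rab5a, Vps16, Vps26a and Vps33a, several of which act at endosomes and lysosomes. Of the 6, Rab5a alone had a peak in all 4 addback libraries, 16.7% beside 7.69% of the 65 promoters with these letters over all genes, and Rab21 had none in any.

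The median −log10 p of peaks at members was above that of all genes with a peak in 3 addback libraries and equal to it in SETα addback replicate 2, where many peaks share the same value. The median −log10 p at members was 5.44 and 5.70 with SETα, beside 4.79 and 5.70 over all genes with a peak, and 7.04 and 5.10 with SETβ, beside 5.69 and 4.61. The range at members ran from 2.32 to 108 in SETα addback replicate 1 and from 2.40 to 106 in SETβ addback replicate 2. Rab5a, the RAB of early endosomes, is an example of a peak that varied between replicates. Its −log10 p was 6.15 and 18.1 with SETα and 6.79 and 7.73 with SETβ, and only SETα addback replicate 2 passed a −log10 q of 5. Copb2, a β′ subunit of the COPI coat, had 4.12 and 10.0 with SETα and no peak with SETβ. Copb1 had 4.77 and 7.33 with SETα and likewise no SETβ peak.

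The isoforms were then compared over members with a peak in both replicates. These were 45 members in SETα addback, 36.0% beside 22.0% of all genes, and 17 in SETβ addback, 13.6% beside 5.84%. In at least 1 replicate 82 members had one with SETα and 36 with SETβ, beside 44.1% and 20.9% of all genes. The sets of both replicates shared 15 members, which is 33.3% of the SETα set and 88.2% of the SETβ set. Over all genes 989 were shared, 23.4% and 88.0%. Another 19 members had a peak in both SETα addback libraries and in neither SETβ addback library, 15.2% beside 10.1% of all genes. They include Copb1, Copb2 and Copg1 of the COPI coat, Rab1b, Rab6a, Rab7, Rab14 and Rab22a, Vps16 of the HOPS and CORVET tethers, Vps33b, and Sec63 of the translocon. A peak in both libraries need not be at the same place. At Copg1, Rab1b and Rab22a the highest-ranked peak lay by the other end in SETα addback replicate 1 and by the start in replicate 2. No member had the reverse pattern, beside 0.187% of all genes. The SETα lists were longer, and at equal list length the counts of the isoforms overlapped, as given above.

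In overexpression 5 members had a peak, all in SETβ overexpression replicate 2, 4.0% beside 3.68% of all genes with a peak in at least 1 overexpression library. They were Rab29, Rab30, Sec24c, Vps26a and Vps51. Vps51 alone was also listed in replicate 1, and 0.187% of all genes were listed in both replicates. In SETα overexpression 0 members were in both, beside 0.879%. In SETβ overexpression the −log10 p at Vps51 was 3.56 and 4.14, with folds of 2.72 and 3.06 and −log10 q of 0 and 0.0244. In the addback libraries the Vps51 −log10 p was at least 19.2. The overexpression summits lay 308 and 346 bases from the gene end, and the addback summits 52 to 161 bases from it. The overexpression summits lay outside Vps51, between it and the start of Tmem262, so these peaks cannot be assigned to Vps51 alone. Rab29 had a −log10 p of 4.76, Vps26a 4.14, Sec24c 3.01 and Rab30 2.69. Rab29 and Rab30 had no addback peak. None of the 5 reached a −log10 q of 5.

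Away from gene ends, peaks inside a member and more than 1 kb from both ends were listed for 27 and 16 members in SETα addback and for 4 and 23 in SETβ addback. These are 21.6%, 12.8%, 3.2% and 18.4% of members, beside 23%, 16.7%, 2.52% and 13.2% of all genes. For 10, 9, 3 and 16 of these the library had no peak at an end of the gene. No share over all genes stands beside these counts of interior peaks alone, so they have no background here. Of the members with interior peaks alone, Vps45, whose product helps SNAREs to assemble at endosomes, was the only one in all 4 libraries. The numbers in SETβ addback differed more between replicates than the numbers at gene ends, which were 23 and 30. In overexpression at most 1 member per library had an interior peak, beside 1.31% to 3.73% of all genes.

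The window decided a few memberships. In SETα addback replicate 1 the last member inside the 1 kb window was Rab9, 726 bases from the nearest peak, and the first outside it was Rab26, at 1135 bases. In SETα addback replicate 2 these were Vps28 at 941 bases and Sec23a at 1090 bases. In SETβ addback they were Rab5if at 661 and Rab6a at 1017 bases in replicate 1, and Trappc4 at 885 and Rab26 at 1022 bases in replicate 2. A peak covered a gene end itself at 34 of the 65 and 31 of the 62 members with SETα, and at 12 of the 23 and 18 of the 30 with SETβ.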

How the data were processed

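The libraries were made by HA ChIP-seq of mouse embryonic stem cells, and 8 peak lists of single libraries and 4 IDR lists of groups were used. Per the submitters' processing notes the tools were Bowtie2, MACS2 and deepTools and the builds GRCm38 and mm10, with no version or role stated. Control library, thresholds and depth are not given in the sources used here, so read depth is unknown. In each deposited library list the score is the authors' integer value, the fold a linear ratio taken as the peak caller's enrichment, and p and q are given as −log10. In the deposited IDR lists the score is a scaled IDR and −log10 p is that of the merged peak. IDR lists were taken to groups by the description labels.

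Positions were set against RefSeq genes of GRCm38.p6 with Python 3.11.15, pandas 2.3.3 and numpy 2.4.6, counted from 1. Chromosomes 8 and 11 and the 3 mitochondrial peaks were left out. A peak within 1 kb of either end was a gene's, and its values are those of the highest-ranked such peak. Strand and sequence came from the RefSeq promoter table, using for each gene the start nearest its 5′ end, which for 58 of 101 members was the end itself. The overlap code was tested on simulated data. The members and lists were chosen with earlier results of these data known. Genes named, up to 25, are Rab33b, those in an addback IDR list, then those with a −log10 q of at least 5 in at least 1 addback library, ordered by the number of such libraries, those in both replicates of an overexpression group, and the leading 2 of each family. Other members were named after their values were seen. Shares are set beside those of all protein-coding genes, with no test over the list. The spread is between 2 libraries a group.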

Additional observations from a re-analysis of the deposited data

How the results depend on the processing

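The counts of members were repeated with other windows, summits in place of peaks, a stricter q, lists of equal length, starts only, without chromosome 6, without genes of other roles and without each replicate. Leaving out genes of other roles kept 114 members, without the RAB effectors and regulators, Sec14l5, Sec1 and Vps72. Counting only the nearest gene was chosen after seeing the data. SETα overexpression stayed at 0 in its 12 repeats, most of which could give nothing else. In 37 of the other 50 repeats the count stayed within 1.5 times the value reported, and in 13 it moved further. In each of the 38 repeats for addback the share of members exceeded that of all protein-coding genes. With a −log10 q of at least 5 the mean number of members fell to 11 in SETα addback, 8.5 in SETβ addback and 0 in SETβ overexpression. With the strongest 1343 peaks of each library it was 13 and 13.5 in SETα and SETβ addback. With starts only, which leaves 101 members, it was 1.5 in SETβ overexpression and 5 in the SETα addback IDR list. With a window of 250 bp it was 1 in SETβ overexpression, and leaving out one replicate there gave 1 to 5. In at least 1 replicate in place of both, 82 members had a peak in SETα addback, 36 in SETβ addback and 5 in SETβ overexpression. Fewer peaks or genes enter each stricter count by construction. Leaving out one replicate gave 62 to 65 in SETα addback and 23 to 30 in SETβ addback. The IDR lists hold no q and are shorter than 1343 peaks, so these settings were not run on them. No paired analysis was possible because the counts come from no test. Read depth is unknown, so a gene without a peak may lie under the reach of a library.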

Other observations

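Among the 142 other trafficking genes, 9 were in at least 1 addback IDR list, 6.34% beside 3.21% of all protein-coding genes. Those in both lists were Ccz1, which with Mon1 activates Rab7, Commd2 of the COMMD family, Srp9 and Srp19 of the signal recognition particle, Ssr2 of the translocon-associated complex, and the SNAREs Stx16 and Vti1a. Exoc3 of the exocyst and Tmed10, a cargo receptor, were in the SETβ list alone. At a −log10 q of at least 5, 6 of them, all but Srp9 among those in both lists, were in all 4 addback libraries. No member of that list was in an overexpression IDR list.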
